A study of Mus musculus with 11 samples.

Results

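The transcripts of 9 surface proteins by which mouse haematopoietic stem cells and their nearest progeny are commonly recognised were followed in 11 libraries of sorted bone marrow cells. The genes, Procr, Esam, Clec1a, Slamf1, Tek, Robo4, Kit, Ly6a and Cd93, were taken by symbol from the 55291 gene symbols of the count table, and each symbol matched 1 row. All 9 were among the 17183 genes that passed the filter on low counts. Stem cells are kept quiescent in the marrow niche, and no single surface protein defines them. They are purified as lineage-negative, c-Kit-positive and Sca-1-positive (LSK) cells, which also include multipotent progenitors already biased to myeloid or lymphoid fates, and are then resolved with further receptors and adhesion proteins such as CD150, EPCR and ESAM. Several of these proteins, among them TIE2, ROBO4, EPCR, ESAM and CD93, are shared with endothelial cells, with which blood stem cells have a common embryonic origin.

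The LSK cells came from C57BL/6 bone marrow of mice labelled Phf6 R274X Tg (Tg, n = 4), Phf6 knockout mice (KO, n = 3) and wild-type mice (WT, n = 4). The X-linked gene Phf6 encodes a chromatin protein with recurrent mutations in human leukaemia, and R274X denotes a stop codon. RNA of single animals was sequenced in paired-end mode (NextSeq 500) according to the labels. The labels give no age, sex or batch, and the promoter that drives the transgene, the make of the knockout allele and the disease state of the animals are not stated in the labels. Kit and Ly6a encode c-Kit and Sca-1, the proteins the cells were sorted on, so that their presence in every library is no finding. In bulk libraries fewer cells of a type and less RNA per cell cannot be told apart.

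Libraries held 28943998 to 41301982 counts in Tg, 30418368 to 45632018 in KO and 20990446 to 31130936 in WT. Levels are given as CPM, the counts of a gene relative to the normalised library size. Where a gene has 0 counts, up to 3 counts remain possible by counting error alone, or 0.0657 to 0.143 CPM. Phf6 transcripts averaged 220.1 ± 46.1 CPM in Tg, 19.4 ± 4.33 in KO and 121 ± 14.2 in WT (SD, n = 4, 3 and 4). Phf6 thus fell in KO against WT (log2 fold change -2.64, adjusted p = 0.000352) and rose in Tg against WT (0.86, adjusted p = 0.0176, both by the quasi-likelihood test of edgeR, 0.0563 without WT replicate 2, and 0.310 without KO replicate 1 and WT replicates 1, 2 and 4). Reads of Xist, the female-specific transcript of X inactivation, and of Y-linked genes occurred together in KO replicate 1 and WT replicates 1, 2 and 4, above 5 CPM of each, although the labels state single animals. These 4 libraries are called mixed here. The Tg libraries held 49.9 to 367 CPM of Y-linked reads and 0.0307 to 0.297 CPM of Xist, whereas every KO and WT library held at least 32.7 CPM of Xist. In the contrasts with Tg, effects of sex and of genotype therefore cannot be told apart. KO against WT was not balanced for this signal either, as 1 of 3 KO and 3 of 4 WT libraries also held Y-linked reads above 5 CPM. The p-values measure the spread between these libraries.

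In GENCODE M21 (GRCm38), Procr occupies chr2:155751117-155755471 on the plus strand, and Cd93 chr2:148436640-148443563 on the minus strand. Esam (chr9:37528078-37538319) and Robo4 (chr9:37401897-37415115), both on the plus strand, lie 113.0 kb apart. Tek is at chr4:94739289-94874976, Kit at chr5:75574916-75656722 and Slamf1 at chr1:171767127-171801184, on the plus strand. Clec1a is at chr6:129424772-129452000 and Ly6a at chr15:74994877-74998031, on the minus strand. None of the 9 overlaps another annotated gene. Of the windows of 100 bases of its transcripts, Ly6a shared 19 of 1311 (1.45%) exactly with Ly6c1, which received 63 counts in all over the Tg libraries, 35 over KO and 13 over WT, and the other 8 shared none.

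The RefSeq promoter table (GRCm38.p6) matched 5 of the 9 genes. The 250 bases before the RefSeq start are shown for the 4 of these that the sort gate did not use, to place their regulatory sequence beside their RNA levels. Capitals mark every exact match, on either strand, to a fixed string for each of 3 factor families that act in blood stem cells and endothelium. Variants of these strings were not searched. The ETS-type core was taken as AGGAAG. The GATA-type core was taken as AGATAA. The E-box core was taken as CAGCTG.
Procr: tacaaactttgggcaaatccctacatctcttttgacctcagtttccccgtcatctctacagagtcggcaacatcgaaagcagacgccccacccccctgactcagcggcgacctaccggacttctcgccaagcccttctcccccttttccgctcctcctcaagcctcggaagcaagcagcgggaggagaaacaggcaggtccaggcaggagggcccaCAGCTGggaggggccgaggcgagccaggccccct
Slamf1: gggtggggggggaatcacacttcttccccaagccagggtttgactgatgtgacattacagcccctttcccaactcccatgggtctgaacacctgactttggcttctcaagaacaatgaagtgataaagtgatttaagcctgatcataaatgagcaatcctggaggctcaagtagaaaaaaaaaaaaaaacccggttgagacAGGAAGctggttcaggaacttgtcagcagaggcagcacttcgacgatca
Tek: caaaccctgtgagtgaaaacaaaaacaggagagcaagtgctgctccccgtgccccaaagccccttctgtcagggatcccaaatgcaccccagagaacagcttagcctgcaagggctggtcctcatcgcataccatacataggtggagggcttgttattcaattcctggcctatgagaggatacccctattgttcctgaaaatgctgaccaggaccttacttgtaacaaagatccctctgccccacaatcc
Robo4: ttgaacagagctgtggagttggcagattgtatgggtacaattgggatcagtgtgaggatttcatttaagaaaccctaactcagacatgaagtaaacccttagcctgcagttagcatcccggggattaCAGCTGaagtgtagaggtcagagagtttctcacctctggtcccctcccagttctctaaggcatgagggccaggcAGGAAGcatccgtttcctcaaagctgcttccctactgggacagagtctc
These windows are chr2:155750967-155751216 for Procr, chr1:171766882-171767131 for Slamf1, chr4:94739039-94739288 for Tek and chr9:37401722-37401971 for Robo4, all on the plus strand. The RefSeq and GENCODE starts differ for Procr, Slamf1 and Robo4. Their windows end past the GENCODE start, so that part of each lies within the gene as GENCODE annotates it. Robo4 held 1 ETS-type core and 1 E-box as defined here, Slamf1 held 1 ETS-type core and Procr held 1 E-box. Tek held none of the 3 exact strings, and no matches overlapped. A window without a match can still hold variants of these strings, which stay unmarked. Among 32851 RefSeq promoters of the same length, the ETS-type core occurred in 29.5%, the GATA-type core in 9.99% and the E-box in 13.0%. The letters are a description of these windows only.

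Together the 9 genes received 0.116% to 0.172% of a library's counts. Scaled to the summed exon length (RPKM), Cd93 was the highest in WT with 108 ± 4.89 RPKM and Clec1a the lowest with 0.979 ± 0.189 (SD, n = 4). Kit followed Cd93 with 81.8 ± 7.69 RPKM, then Ly6a with 21.2 ± 4.80 and Procr with 9.39 ± 2.33. Esam averaged 7.79 ± 1.23 RPKM in WT, Robo4 5.68 ± 0.960, Tek 5.31 ± 0.719 and Slamf1 2.10 ± 0.778. From Procr to Tek the ranges of neighbours in this order overlapped, while no other neighbours did. KO cells kept Cd93 (134 ± 9.35 RPKM) above Kit (68.5 ± 3.93), with no overlap. In Tg cells the ranges of the pair overlapped, with Kit at 86.2 ± 10.8 RPKM and Cd93 at 77.5 ± 11.2. Clec1a and Slamf1 also overlapped in Tg, at 2.02 and 2.00 RPKM, whereas in KO (0.763 and 1.37) and in WT (0.979 and 2.10) Clec1a lay below Slamf1 in every library. The order depends on the length used: with the longest transcript of each gene, Kit averaged 139 RPKM in WT against 108 for Cd93.

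**Figure D1:**
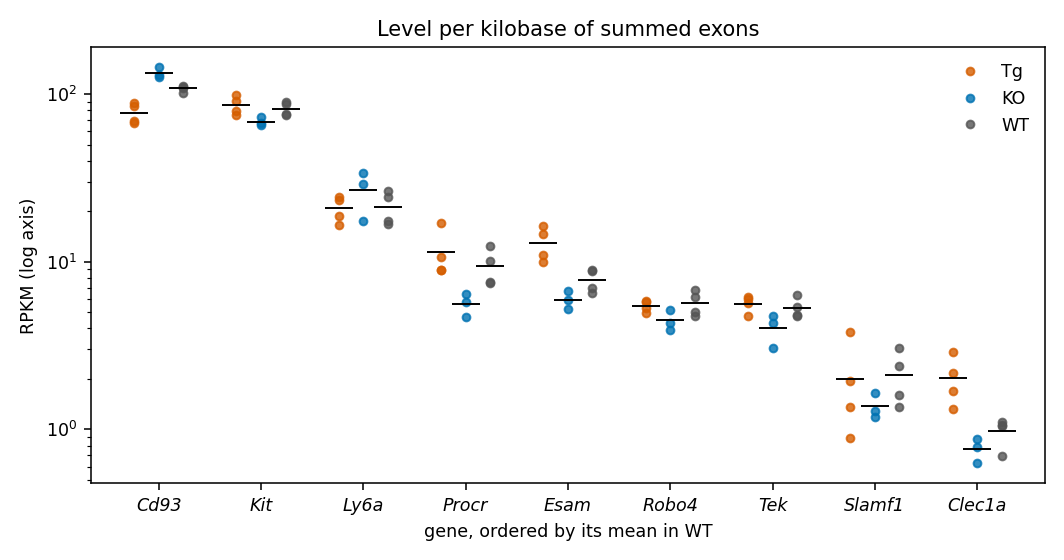
RPKM over summed exons (log axis) of the 9 genes in each library, ordered by the WT mean, with Tg, KO and WT libraries as separate columns of points and the group mean as a bar. Cd93 and Kit stand highest, and Clec1a and Slamf1 lowest, in all 3 genotypes.

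Esam and Clec1a rose in Tg cells against both other genotypes and Cd93 fell, whereas none of the 9 genes was called in KO cells against WT. Of the 9 genes, 2 were called higher and 1 lower in Tg against WT, where 4.92% of all 17183 genes were called (2.54% higher and 2.39% lower). Among 11 fits without 1 library, these calls against WT held in 4 for Esam, 2 for Clec1a and 7 for Cd93. Against KO, 3 were called higher in Tg (Procr, Esam and Clec1a) and 1 lower (Cd93), where 5.69% of all genes were called (2.63% higher and 3.06% lower). In KO against WT 0.0233% of all genes were called, and by DESeq2 and limma-voom also none of the 9. The contrasts share libraries, so that their values for a gene are not independent of each other. The 9 genes were chosen with earlier results of these data known, so that their counts beside the shares of all genes are a description and no test.

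**Figure D2:**
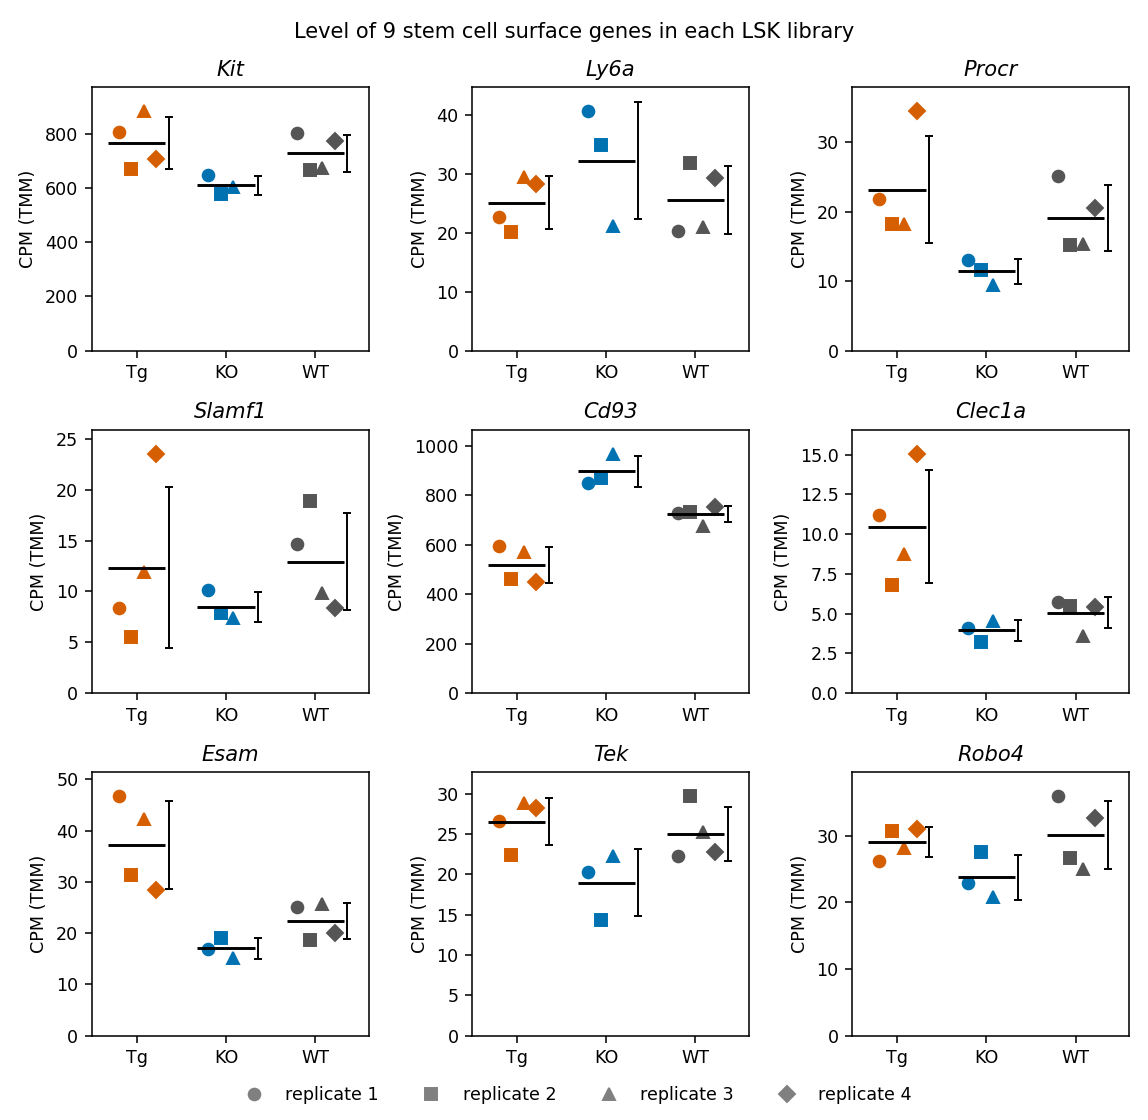
TMM-normalised CPM of the 9 genes in every library, with Tg, KO and WT libraries from left to right in each panel and the group mean as a line and its SD as an error bar, on axes that start at 0. The Tg points of Esam and Clec1a lie above, and those of Cd93 below, all KO and WT points.

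ESAM is an immunoglobulin-type adhesion protein of endothelial tight junctions and platelets, and it marks long-term repopulating cells within the LSK gate. Esam measured 46.7, 31.4, 42.2 and 28.5 CPM in the Tg libraries, 16.9, 19.1 and 15.1 in KO and 25.1, 18.6, 25.6 and 20.1 in WT. Every Tg library stood above every KO and WT library, while KO and WT overlapped. Esam rose 1.66-fold in Tg against WT (log2 fold change 0.73, SE 0.17, adjusted p = 0.0345 by edgeR) and 2.19-fold in Tg against KO (1.13, SE 0.19, adjusted p = 0.00797). KO differed from WT by -0.39 (95% interval -0.80 to 0.01, adjusted p = 0.709). The Tg call against WT was lost on leaving out KO replicate 1, Tg replicate 1, 2 or 3 or WT replicate 1, 2 or 4, with adjusted p up to 0.107 and a log2 fold change of at least 0.61. The call against KO held without any 1 library. Without the 4 mixed libraries, which left WT 1 library, the values were 0.54 against WT (adjusted p = 0.569) and 1.11 against KO (adjusted p = 0.0574).

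CLEC1A is a C-type lectin-like receptor of endothelium and myeloid cells, and its transcript is found in stem cells of the marrow. Clec1a received only 108 to 490 counts per library. It measured 11.2, 6.82, 8.76 and 15.1 CPM in Tg, 4.09, 3.24 and 4.53 in KO and 5.75, 5.50, 3.62 and 5.42 in WT. All 4 Tg libraries were above all others, with replicate 4 the highest, and KO and WT overlapped. Clec1a rose 2.06-fold in Tg against WT (1.04, SE 0.25, adjusted p = 0.0375 by edgeR) and 2.65-fold in Tg against KO (1.40, SE 0.28, adjusted p = 0.0169). The difference between KO and WT was -0.36 (95% interval -0.95 to 0.23). Against WT the call was lost without any 1 of the KO or WT libraries and without Tg replicate 1 or 4, with adjusted p up to 0.106 and a log2 fold change of at least 0.82. Against KO it was lost without any 1 KO library, with adjusted p up to 0.0804. On leaving out the mixed libraries, the values were 1.54 against WT (adjusted p = 0.322), 1.42 against KO (adjusted p = 0.0948) and 0.12 for KO against WT, which turned its direction.

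CD93 is a C-type lectin-domain glycoprotein, the AA4 antigen of early haematopoietic and B-cell progenitors and of endothelium. Cd93 measured 593, 459.9, 569 and 447 CPM in Tg, 850.0, 871 and 967 in KO and 729, 733, 675 and 751 in WT. The 3 genotypes did not overlap: every Tg library lay below every WT library, and every KO library lay above every WT library. Cd93 fell by 0.48 on the log2 scale in Tg against WT (SE 0.10, adjusted p = 0.0256 by edgeR), and by 0.79 in Tg against KO (SE 0.11, adjusted p = 0.00307). Its KO level was 0.31 above WT (95% interval 0.07 to 0.55, unadjusted p = 0.0151), a difference that did not pass the adjustment over all genes (adjusted p = 0.630). Against KO the Tg call held without any 1 library and in all 12 other settings tried. Against WT it was lost without Tg replicate 2 or WT replicate 1, 2 or 4, with adjusted p up to 0.0728. With the mixed libraries left out the values were -0.38 against WT (adjusted p = 0.516) and -0.84 against KO (adjusted p = 0.0278).

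Markers of other cell populations moved in the same libraries. For comparison, 4.92% of all genes were called in Tg against WT and 5.69% in Tg against KO. Of 18 markers of granulocyte-monocyte progenitors, all detected in every library, 11 were called higher and none lower in Tg against WT (median log2 fold change 2.64 over the 18, 0.01 over all genes). Their summed level ran from 6037 to 26752 CPM in Tg, from 5111 to 6449.8 in KO and from 2241 to 4812 in WT. Prtn3, a granule protease, averaged 1356 CPM in Tg, 339 in KO and 186 in WT. Of 14 genes of lymphoid-biased progenitors 7 were called lower in Tg against WT and 7 against KO, with sums of 1825 to 2139 CPM in Tg, 3479 to 8932 in KO and 2536 to 6741 in WT. Dntt, the terminal transferase of early lymphoid cells, averaged 157 CPM in Tg, 446 in KO and 509 in WT. All 14 B-cell and plasma cell genes lay below WT in Tg (median -2.78), 2 of them called, with sums of 213 to 347 CPM in Tg, 1562 to 6257 in KO and 359 to 5353 in WT. Ighm belongs to both the lymphoid-biased and the B-cell list, so that their sums are not separate. It alone measured 148 to 196 CPM in Tg, 1017 to 5945 in KO and 237 to 4136 in WT. Of 13 tested megakaryocyte and platelet genes none was called in Tg against WT and 2 were called higher in Tg against KO (Itga2b and Itgb3). Both also stand in the list of other surface proteins read below, so that these calls are not separate. The sums were 427 to 714 CPM in Tg, 220.2 to 349 in KO and 316 to 489 in WT. With all libraries, 17 of the 18 granulocyte-monocyte genes lay above WT in Tg. Without the 4 mixed libraries, which left WT replicate 3 alone, 18 of 18 did (median 2.46), and the B-cell median in Tg against WT turned to 0.18. The part of these markers in the results for Esam, Clec1a and Cd93 was not tested.

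EPCR, the protein C receptor encoded by Procr, binds protein C on endothelium and marks dormant long-term stem cells. Procr measured 21.8, 18.2, 18.2 and 34.5 CPM in Tg, 13.1, 11.6 and 9.49 in KO and 25.1, 15.2, 15.4 and 20.5 in WT. The KO libraries lay below all others, and Tg and WT overlapped. Procr rose 2.03-fold in Tg against KO (log2 fold change 1.02, SE 0.26, adjusted p = 0.0413 by edgeR). This call was lost without any 1 KO library, without Tg replicate 1, 2 or 4 or without WT replicate 4, with log2 fold changes of 0.77 to 1.13 and adjusted p up to 0.143. KO stood 0.74 below WT on the log2 scale (95% interval -1.30 to -0.18, unadjusted p = 0.0136, adjusted p = 0.611). Tg differed from WT by 0.28 (95% interval -0.22 to 0.79), or by 0.03 without Tg replicate 4. The mixed libraries left out, Tg stood 1.12 above KO (adjusted p = 0.109).

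CD150, the self-binding SLAM receptor encoded by Slamf1, separates long-term stem cells from most progenitors. Slamf1 measured 8.33, 5.50, 11.9 and 23.5 CPM in Tg, 10.1, 7.92 and 7.34 in KO and 14.7, 18.9, 9.87 and 8.34 in WT. It was the most variable of the 9 within Tg, with a coefficient of variation of 64.3%, and its 3 groups overlapped. The log2 fold changes were -0.07 in Tg against WT (95% interval -0.94 to 0.79), 0.54 in Tg against KO (-0.41 to 1.49) and -0.61 in KO against WT (-1.56 to 0.34). Without Tg replicate 4 the value for Tg against WT was -0.59. None was called, and without the mixed libraries Tg against WT turned to 0.33.

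TIE2, the angiopoietin receptor tyrosine kinase encoded by Tek, holds stem cells in quiescence in the niche. Tek measured 26.6, 22.4, 28.8 and 28.3 CPM in Tg, 20.4, 14.3 and 22.3 in KO and 22.3, 29.7, 25.2 and 22.8 in WT. The KO libraries lay below all others, the highest of them only just under the lowest Tg and WT libraries, and Tg and WT overlapped. The differences were 0.08 in Tg against WT (95% interval -0.24 to 0.41), 0.48 in Tg against KO (0.13 to 0.84, adjusted p = 0.109 by edgeR) and -0.40 in KO against WT (-0.75 to -0.04, adjusted p = 0.670). DESeq2 called Tek in Tg against KO (adjusted p = 0.0433).

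ROBO4 is a roundabout receptor of endothelium that takes part in holding stem cells in the marrow. Robo4 measured 26.3, 30.7, 28.2 and 31.0 CPM in Tg, 22.9, 27.5 and 20.9 in KO and 35.9, 26.7, 25.1 and 32.7 in WT. All 3 genotypes overlapped. The differences were -0.05 in Tg against WT (95% interval -0.34 to 0.24), 0.29 in Tg against KO (-0.02 to 0.60) and -0.34 in KO against WT (-0.65 to -0.03, unadjusted p = 0.0351, adjusted p = 0.680). Leaving out the mixed libraries turned Tg against WT to 0.22.

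Kit, the receptor for stem cell factor, measured 807, 671, 884 and 709 CPM in Tg, 648, 579 and 603 in KO and 802, 667, 674 and 773 in WT. The KO libraries were the 3 lowest of the 11. Kit differed by 0.07 in Tg against WT (95% interval -0.15 to 0.30), 0.33 in Tg against KO (0.09 to 0.58, adjusted p = 0.107 by edgeR and 0.0297 by DESeq2) and -0.26 in KO against WT (-0.50 to -0.01, adjusted p = 0.689). Ly6a, which encodes the glycolipid-anchored protein Sca-1, measured 22.6, 20.0, 29.4 and 28.2 CPM in Tg, 40.6, 34.9 and 21.2 in KO and 20.3, 31.8, 21.0 and 29.2 in WT. All 3 genotypes overlapped, with differences of -0.03 in Tg against WT (95% interval -0.51 to 0.45), -0.36 in Tg against KO (-0.88 to 0.15) and 0.34 in KO against WT (-0.18 to 0.85). Without KO replicate 1, which held the highest value, the last was 0.14, and without the mixed libraries Tg against WT turned to 0.26.

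Ly6a is an interferon-inducible gene, and a list of 30 interferon response genes was read beside it. Of these, 29 were above WT in KO, with a median log2 fold change of 0.73, but edgeR called none, while unadjusted p-values were under 0.05 for 19. In Tg against KO 20 were called lower (11 without the mixed libraries), among them Irf7, a transcription factor of that response (log2 fold change -1.80, SE 0.27, adjusted p = 0.00463). The summed level was 803 to 961 CPM in Tg, 1173 to 1786 in KO and 879 to 1182 in WT. KO replicate 1 was highest of the 11 for both this sum and Ly6a, while KO replicate 3 held 1346 CPM of the sum and the lowest Ly6a of its group. The part of these genes in the Ly6a values was not tested.

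Counted over the 9 genes, 7 lay below WT in KO, with a median log2 fold change of -0.36, against -0.01 over all genes. In that contrast 5 of the 9 had an unadjusted p under 0.05 (Procr, Tek, Robo4 and Kit lower, Cd93 higher), against 7.09% of all genes (3.75% lower and 3.33% higher), and the groups did not overlap for 4, against 7.5% of all genes. In Tg against WT 5 lay above, with a median of 0.07, and the groups did not overlap for 3, against 9.85% of all genes. In Tg against KO 7 lay above, with a median of 0.48 against 0.01 over all genes, and the groups did not overlap for 6, against 20.8% of all genes. The 9 genes were chosen with earlier results of these data known, so that these counts beside the shares are a description and no test. Without the 4 mixed libraries 6 of the 9 lay below the single WT library in KO (median -0.17), 8 lay above it in Tg (median 0.26) and 7 lay above KO in Tg (median 0.53).

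**Figure D3:**
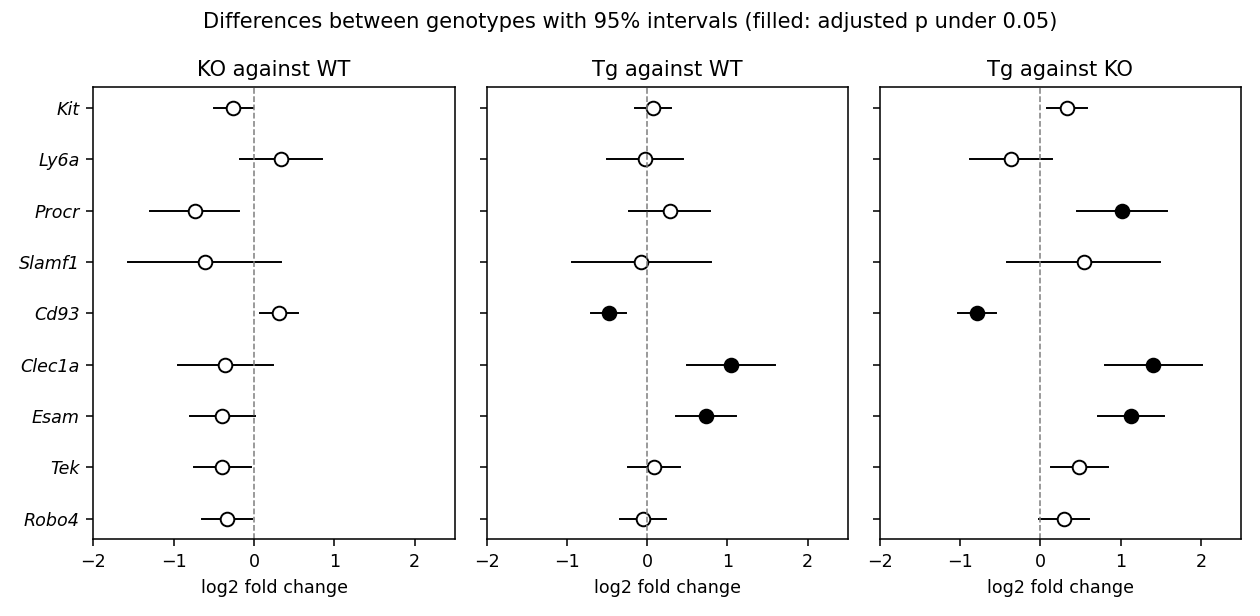
Log2 fold changes of the 9 genes in KO against WT, Tg against WT and Tg against KO, with 95% intervals, filled where the Benjamini-Hochberg adjusted p over all genes was under 0.05. Cd93 lies on the opposite side of 0 from Esam and Clec1a in all 3 contrasts.

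The 9 genes did not move as one block from library to library. Tg replicate 4 was the highest of the 11 libraries for Procr, Slamf1 and Clec1a and the lowest for Cd93. Tg replicate 2 was the lowest Tg library for 6 of the 9. Within KO, replicate 3 was the lowest for 5 genes and highest for 3. Within genotypes Cd93 in WT was among the steadiest, with a coefficient of variation of 4.52%, and Procr in Tg reached 33.3%.

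**Figure D4:**
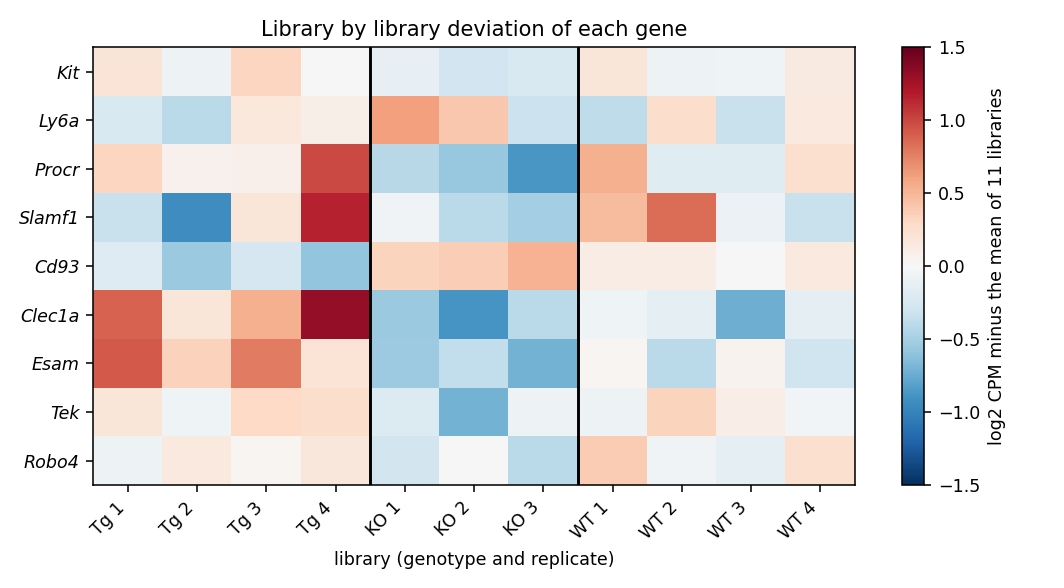
Deviation of log2 CPM of each gene from its mean over the 11 libraries, with Tg, KO and WT libraries from left to right. Tg replicate 4 is far above the mean for Procr, Slamf1 and Clec1a, and KO libraries are below it for Procr, Esam and Clec1a.

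After the genotype means were subtracted, the genes whose log2 CPM followed each member most closely over the 11 libraries, among 10289 genes with at least 5 CPM, were listed as a description. These libraries share a cell sort and differ in depth, and the highest of so many correlations is high by selection. Procr was closest to Pnrc2 (Pearson r = 0.983) and Alcam (0.978), Slamf1 to Tmem106b (0.979) and Neu3 (0.978), and Clec1a to Mboat2 (0.977) and Casp12 (0.976). Esam was closest to Il1r1 (0.956) and Tha1 (0.955), Cd93 to Dclre1b (0.964) and Ggct (0.954), and Tek to Aste1 (0.945) and Slc30a5 (0.937). Robo4 was closest to Hcls1 (0.955) and Efcc1 (0.941), Kit to Abhd15 (0.970) and Sema4c (0.965), and Ly6a to Trim26 (0.967) and Rfx2 (0.957).

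Ligands and partners of these receptors were read from lists. Kitl, which encodes the Kit ligand made by niche cells, was near absent, with 25 counts in all over the Tg libraries, 36 over KO and 73 over WT. Angpt1, the activating ligand of TIE2, was abundant, at 450.7 ± 74.4 CPM in Tg, 366 ± 55.3 in KO and 415 ± 106 in WT, and was called in no contrast (log2 fold changes 0.12, 0.30 and -0.18 for Tg against WT, Tg against KO and KO against WT). Tie1, the co-receptor of TIE2, measured 109 ± 6.30 CPM in Tg, 56.9 ± 5.43 in KO and 77.9 ± 11.3 in WT, with no overlap between genotypes. Tie1 rose in Tg against WT (0.49, SE 0.10, adjusted p = 0.0255) and against KO (0.94, SE 0.11, adjusted p = 0.00155 by edgeR), and stood 0.45 lower in KO than in WT on the log2 scale without a call (log2 fold change -0.45, adjusted p = 0.372). Against WT its call was lost without Tg replicate 1 or 2 or WT replicate 2 (adjusted p up to 0.0806) and without the 4 mixed libraries (0.180), whereas against KO it held without any 1 library and without the 4. Tie1 was the only call among the 7 tested genes of TIE2 ligands and partners. None was called among 9 tested genes of the protein C pathway, 9 of the SLAM family and 8 of Robo and Slit in any contrast. Of 18 genes of Kit signalling none was called against WT, and the inhibitory adaptor Sh2b3 (-0.34, adjusted p = 0.0443) and the docking protein Gab2 (-0.26, adjusted p = 0.0458) fell in Tg against KO. The call of Sh2b3 held in 3 of the 11 fits without 1 library and that of Gab2 in 1 of 11.

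Among 42 other surface proteins of stem cells and multipotent progenitors, none was called in KO against WT. In Tg against WT 2 were higher and 1 lower, and in Tg against KO 6 were higher and 2 lower. Of all genes, 0.0233% were called in KO against WT, 4.92% in Tg against WT and 5.69% in Tg against KO. Prom1, which encodes the CD133 antigen, averaged 106 ± 92.6 CPM in Tg (13.0 to 218), 6.59 ± 0.517 in KO and 3.39 ± 3.18 in WT, and rose in Tg against WT (log2 fold change 5.03, SE 0.90, adjusted p = 0.0146). Il7r, the interleukin 7 receptor chain of lymphoid progenitors, fell in the same contrast (-2.23, SE 0.55, adjusted p = 0.0420), a call that held only without Tg replicate 4 or WT replicate 3 among the 11 fits without 1 library. In Tg against KO the integrin chains Itga6 (0.59, SE 0.09, adjusted p = 0.00621) and Itga2b (1.20, SE 0.25, adjusted p = 0.0192) rose, as did the growth hormone receptor Ghr (1.12, SE 0.26, adjusted p = 0.0337). Itga2b lost its call without KO replicate 2 or 3 (adjusted p up to 0.0773) and Ghr without any 1 KO library or without Tg replicate 1, 2 or 4 (up to 0.134). Without the 4 mixed libraries 0 of the 42 genes were called in Tg against WT and 5 in Tg against KO, among them Itga6 and Itga2b. Over the 42 genes the median log2 fold change was 0.08 in Tg against WT, 0.23 in Tg against KO and -0.07 in KO against WT.

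Since several of the 9 genes are also endothelial, 22 endothelial markers were read beside them. Their summed level ran from 342 to 505 CPM in Tg, from 305 to 331 in KO and from 355 to 450.2 in WT, and 18 to 21 of the 22 were detected in a library. Vwf, Pecam1, Tie1 and Egfl7 made up most of this sum, and Vwf and Tie1 also stand in other lists read here. Pecam1 averaged 115 CPM in Tg, 121 in KO and 141 in WT, and Egfl7 38.6, 60.3 and 57.1. Cdh5, VE-cadherin of endothelial junctions, averaged 0.365 CPM in Tg, 0.337 in KO and 0.844 in WT. Sox17 had 0 counts in all Tg libraries, 1 in KO and 25 in WT, and Lyve1 had 2 in Tg, 2 in KO and 6 in WT. Other markers, named after their values were seen, averaged higher in Tg without a call in any contrast. Vwf averaged 121 CPM in Tg (69.1 to 225), 45.2 in KO (18.6 to 64.2) and 76.5 in WT (48.7 to 148). Flt1 averaged 4.11 in Tg (1.74 to 6.10), 1.31 in KO (0.962 to 1.54) and 1.40 in WT (0.698 to 2.59). Cldn5 averaged 2.75 in Tg (0 to 8.63), 0.0756 in KO (0 to 0.197) and 0.439 in WT (0.222 to 0.762). Of 18 tested, 7 lay above WT in Tg, and 1 (Tie1) was called higher and 4 lower, including Stab2, a scavenger receptor of sinusoids, which averaged 0.166 CPM in Tg, 2.92 in KO and 2.31 in WT (log2 fold change -3.75 in Tg against WT, SE 0.61, adjusted p = 0.0111). In Tg against KO 10 lay above, with 1 called higher and 4 lower, and in KO against WT none was called. The shares of all genes called were 4.92% in Tg against WT and 5.69% in Tg against KO. With the mixed libraries left out 0 were called in Tg against WT, while Stab2 was still called in Tg against KO (adjusted p = 0.00974). The part of endothelial RNA in the results for the 9 genes was not tested.

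**Figure D5:**
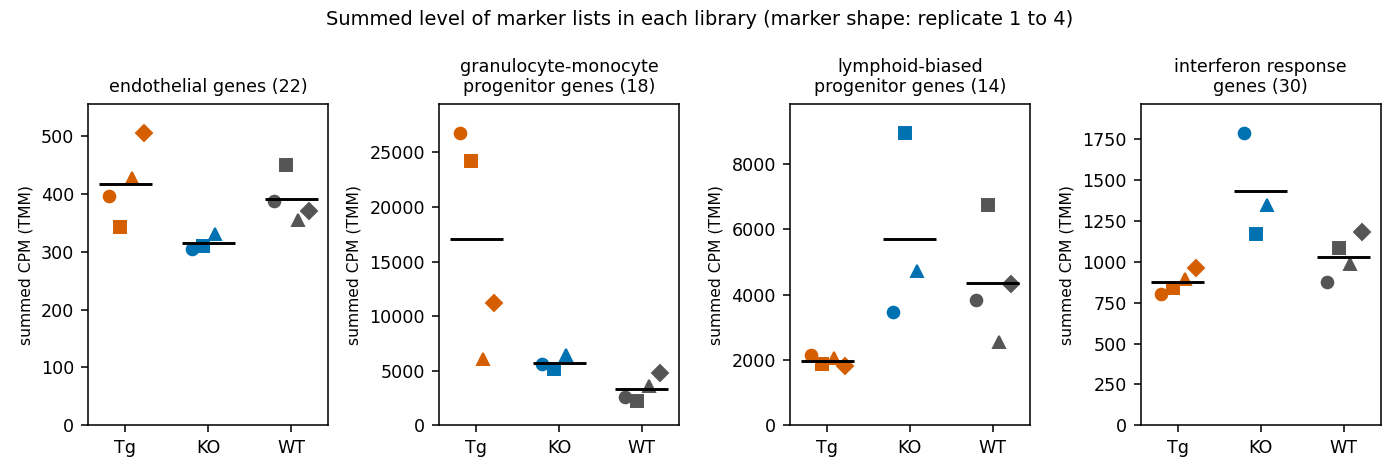
Summed TMM-normalised CPM of the endothelial (22 genes), granulocyte-monocyte progenitor (18), lymphoid-biased progenitor (14) and interferon response (30) lists in each library, Tg, KO and WT from left to right, with marker shape for the replicate and the group mean as a bar. The Tg libraries lie lowest for the lymphoid-biased list, at 1825 to 2139 CPM, and spread widely for the granulocyte-monocyte list, from 6037 to 26752 CPM. The lymphoid-biased list includes Ighm, which is also in the B-cell list.

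Relatives by family were read beside the shares of all genes called, 4.92% in Tg against WT and 5.69% in Tg against KO. Of 7 tested Ly6 relatives, Ly6c2, a monocyte and granulocyte surface protein, rose in Tg against WT (295 CPM in Tg, 141 in KO and 35.3 in WT, log2 fold change 3.07, adjusted p = 0.0376), a call that held only without Tg replicate 3 or WT replicate 4 among the 11 fits without 1 library. Of 10 tested genes with C-type lectin domains, Olr1 rose in Tg against WT (26.6 CPM in Tg, 3.07 in KO and 1.96 in WT, log2 fold change 3.79, adjusted p = 0.0197) and Clec2i fell (4.80 CPM in Tg, 5.77 in KO and 8.91 in WT, -0.89, adjusted p = 0.0183). The call of Olr1 was lost without Tg replicate 1 (0.0597) and that of Clec2i without Tg replicate 1 or 2 or WT replicate 1 (up to 0.0556). All 3 calls against WT were lost without the mixed libraries (adjusted p = 0.267 for Ly6c2, 0.230 for Olr1 and 0.383 for Clec2i). In Tg against KO Olr1 rose (3.12, adjusted p = 0.0444) and Ly6i fell (0.0766 CPM in Tg, 0.946 in KO and 0.153 in WT, log2 fold change -3.54, adjusted p = 0.0256). Both of these calls were lost without any 1 KO library, without Tg replicate 1 or 2, for Olr1 also without Tg replicate 4, and without the mixed libraries (0.092 for Olr1 and 0.0727 for Ly6i). Over 30 transcription regulators of stem cells the median log2 fold change was 0.09 in Tg against WT, 0.17 in Tg against KO and -0.09 in KO against WT.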

How the data were processed

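Total RNA of sorted LSK bone marrow cells was sequenced in 4 Tg, 3 KO and 4 WT libraries, each of a single animal according to the labels. Groups were taken from the labels. Raw, unnormalised counts of reads per gene were deposited by the authors in 1 table. FastQC, Trimmomatic, STAR and HTSeq and the build mm10 are named per the submitters' processing notes, and their versions, the annotation and the strand setting are not given. Counts, 20990446 to 45632018 per library, were fitted in 1 model of all 11 libraries with edgeR 4.0.16 (R 4.3.3, TMM factors, filterByExpr, quasi-likelihood test), with calls at an adjusted p (Benjamini-Hochberg over 17183 genes) below 0.05. Standard errors were derived from the F statistic of each fold change. CPM used TMM factors, and RPKM divides them by GENCODE M21 summed exon length. The common biological coefficient of variation was 0.272. No library duplicated another.

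The 9 genes and 20 lists of 315 symbols were chosen with earlier results of these data known. Named besides the 9 genes were up to 4 called genes with the lowest p per list described, Kitl, Angpt1, Tie1, Phf6 and the 2 genes most like each member. Some genes under this rule are left out here, among them Fabp4 of the endothelial list. Named outside the rule were Xist, Ly6c1 and the endothelial genes Cdh5, Sox17, Lyve1, Vwf, Flt1, Cldn5, Pecam1 and Egfl7. Alternatives were DESeq2 1.42.0, limma-voom (limma 3.58.1), other scaling, filters of none or 2 CPM in 3 libraries, only the groups compared, a replicate block, a Y-linked covariate, a surrogate variable (sva 3.50.0), and libraries left out. The fit was tested on simulated data. Figures used matplotlib 3.10.9 (Python 3.11.15).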

Additional observations from a re-analysis of the deposited data

Results flagged for a closer look

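Within the WT group, Clec1a in replicate 3 stood apart from the other libraries at 3.62 CPM, against 5.75, 5.50 and 5.42 CPM in replicates 1, 2 and 4. The gap to the nearest library was large for the range of the group. This was 1 of 20 groups of 4 libraries examined for a library far from the others, and chance alone marks about 1 in 20. Without this library Clec1a stood 0.91 above WT in Tg on the log2 scale (adjusted p = 0.0619 by edgeR), against 1.04 with it.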

How the results depend on the processing

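Of 621 values of the 9 genes under another setting, 551 kept direction and side of the threshold. Of the rest, 54 lost a call, 2 gained one and 14 turned direction, and the causes were not tested. Most of the 621 values had no call to lose. In Tg against WT, the call of Esam held in 7 of 12 other settings and in 4 of 11 fits without 1 library. For Clec1a these counts were 6 and 2, and for Cd93 8 and 7. In Tg against KO they were 7 and 4 for Procr, 11 and 11 for Esam, 9 and 8 for Clec1a, and 12 and 11 for Cd93. None of the 9 was called in KO against WT under any setting. For Tg against WT 3 were called, but 0 with only the groups compared, with the replicate block, without the 4 libraries of mixed Xist and Y-linked signal or with 1 surrogate variable, and 0 to 2 without 1 library (0 without WT replicate 1, 2 or 4). For Tg against KO 4 were called, but 2 with the replicate block, 2 with the Y-linked covariate, 1 without the mixed libraries, 6 with DESeq2 and 2 to 4 without 1 library. Over all genes, KO against WT gave 4 calls, but 99 with DESeq2, 2 with the Y-linked covariate, 1 each with limma-voom, only the groups compared, the block or the surrogate variable, and 1 to 4 without 1 library. Tg against WT gave 846, but 1912 with DESeq2, 358 with only the groups compared, 221 with the block, 1422 with the covariate, 20 without the mixed libraries, 519 with the surrogate variable and 211 to 1076 without 1 library. Tg against KO gave 978, but 1922 with DESeq2, 303 with the block, 463 with the covariate, 364 without the mixed libraries, 636 with the surrogate variable and 287 to 1096 without 1 library.

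Log2 fold changes that turned direction without the mixed libraries were Clec1a in KO against WT (0.12) and Slamf1 (0.33), Robo4 (0.22) and Ly6a (0.26) in Tg against WT. Slamf1 in Tg against KO was -0.14 with the covariate. Without 1 library, Tg against WT ranged from -0.59 to 0.17 for Slamf1, -0.13 to 0.039 for Robo4, -0.0045 to 0.13 for Kit and -0.13 to 0.10 for Ly6a. The fit without the mixed libraries had 1 WT library, which is assumed to vary like the others. Replicate numbers did not pair libraries (r of deviations -0.245 to 0.0959 over 10 pairs, and 1 of 11 libraries closest to its own number), so the block is given only here, and with it the Phf6 call in Tg against WT was lost (adjusted p = 0.0525). DESeq2 called 11 of the 42 other surface proteins in Tg against WT (3 by edgeR) and 15 in Tg against KO (8 by edgeR). Precision is limited for Clec1a, with 108 to 490 counts per library.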

Other observations

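Marker lists of mature cells not used above gave the following values, beside 4.92% of all genes called in Tg against WT and 5.69% in Tg against KO. Of 14 tested macrophage genes, 6 were called lower in Tg against WT, 2 lower in Tg against KO and none in KO against WT, with summed levels of 35.6 to 191 CPM in Tg, 59.8 to 219.9 in KO and 72.3 to 312 in WT. Of 14 tested T and NK cell genes, 1 was called higher and 5 lower in Tg against WT, and 1 higher and 5 lower in Tg against KO. Nkg7, a granule protein of cytotoxic cells, was the call that was higher in both, and it was lost against KO without KO replicate 1 or 2. Of 14 erythroid genes 1 was higher and 2 lower in Tg against WT and 1 was lower in Tg against KO. Of 9 tested mast cell and basophil genes 1 was higher in Tg against WT, Hdc, the enzyme of histamine synthesis (log2 fold change 1.78, adjusted p = 0.0216 by edgeR, and lost without Tg replicate 1 or WT replicate 1 or 2, up to 0.0637). No gene of these 4 lists was called in KO against WT, nor in Tg against WT without the 4 libraries of mixed Xist and Y-linked signal, which left WT replicate 3 alone.

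Genes of the SLAM family and its adaptors other than Slamf1 lay below WT in Tg for all 9 tested, with a median log2 fold change of -0.56 and none called, while 4 of the 9 lay above WT in KO, with a median of -0.01. Without the mixed libraries the median in Tg against WT was 0, over 11 tested genes. The 3 of these with an unadjusted p under 0.05 in Tg against WT were not called by edgeR after adjustment over all genes.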
